A study of Mus musculus with 38 samples.

Results

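The genomic sites described here are ChIP peaks of the Notch1 intracellular domain (Notch1-IC) that were listed in unstimulated progenitors and were absent from the lists made after Notch stimulation. They were chosen by the measured Notch1-IC peak lists alone, as the autosomal peaks of the LP list that shared no base with a Phase 1 or Phase 2 Notch1-IC peak. Of the 1573 autosomal LP peaks, 1473 met this rule (93.6%) and are called LP-only sites. The other 100 LP peaks are called shared sites, of which 51 overlapped the Phase 1 list, 82 the Phase 2 list and 33 both. A further 298 Phase 1 or Phase 2 Notch1-IC peaks had no LP counterpart and are called ligand-induced sites. Of these, 94 came from the Phase 1 list and 204 from the Phase 2 list only. For the latter, ligand exposure cannot be told apart from the later stage of the cells. All 17 lists of the series together held 359759 peaks.

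The cells were Cas9-LP, a lymphoid progenitor line derived from the fetal liver of mice that were Ebf1-deficient and had the Rosa26-Cas9 knock-in, grown with SCF, Flt3L and IL-7. All groups therefore lacked Ebf1, a transcription factor needed for B cells, and carried Cas9. LP cells were cultured on OP9 stroma, which does not present the Notch ligand DLL4. Phase 1 and the later Phase 2 cells were cultured on OP9-DLL4 stroma, which does. Notch1-IC was precipitated with a mixture of antibodies against Notch1-IC in 6 samples, 2 for each stage, and CTCF, p300, RUNX1 and Med12 were profiled at the LP and Phase 1 stages, again with 2 samples each. Further lists came from cells with guide RNAs, in which sgCont is the control and sgMed12, sgCbfb and sgCTCF target the named genes. The study described these as made from few cells and noisier. Both samples of a group were merged into a single list of reproducible peaks by the authors, so no value per replicate was used here and no difference could be set against replicate spread. The intervals below are 95% intervals for counting error only, and peaks are not replicates of a culture. The read depth behind each list was not used here. The LP Notch1-IC list held 1585 peaks against 152 in Phase 1 and 352 in Phase 2, so absence from the stimulated lists cannot be told apart from lower depth or enrichment of those lists. Both stimulated lists used here were also shorter than the study describes them. Peaks outside them were not analysed here, so the LP-only and ligand-induced sets hold for these lists only.

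Ligand binding releases Notch1-IC from the membrane, and in the nucleus it binds the DNA-binding protein RBPJ and recruits Mastermind-like coactivators and p300, an acetyltransferase of active enhancers. RUNX1 is a DNA-binding regulator of blood stem cells, progenitors and early T cells, and works with its partner Cbfb. Med12 is a subunit of the kinase module of Mediator, the complex that links enhancers to RNA polymerase II.

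The sequences below show what the highest-scored LP-only sites held, next to a ligand-induced site for contrast. They were read from the GRCm38 (mm10) genome and are printed 5′ to 3′ on the plus strand. Capitals mark the strings TGTGGTT or TGCGGTT (RUNX) and GTGGGAA (RBPJ) on either strand. The first 2 are among the 3 highest-scored LP-only sites with a RUNX string and outside annotated repeats. Distances to a gene start are signed, and negative ones are upstream. The intergenic site near Atp13a2 (chr4:140983496-140983702) lay at -3.27 kb and scored 105.
Atp13a2: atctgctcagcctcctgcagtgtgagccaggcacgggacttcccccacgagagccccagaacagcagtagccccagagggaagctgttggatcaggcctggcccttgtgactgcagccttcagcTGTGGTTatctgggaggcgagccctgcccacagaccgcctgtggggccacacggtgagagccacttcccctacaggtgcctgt
The intergenic site nearest to Sfi1 (chr11:3105462-3105668) scored 85.1.
Sfi1: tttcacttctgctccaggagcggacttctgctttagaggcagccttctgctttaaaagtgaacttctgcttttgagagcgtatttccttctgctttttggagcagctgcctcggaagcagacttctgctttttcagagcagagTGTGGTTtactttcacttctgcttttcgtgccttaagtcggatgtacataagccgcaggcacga
The highest-scored LP-only site of all lay in an intron of Atrnl1 (chr19:57994424-57994630), held neither string and scored 162. Shifted by 50 bases against itself, this sequence matched at 82.8% of positions, as a tandem repeat does.
Atrnl1: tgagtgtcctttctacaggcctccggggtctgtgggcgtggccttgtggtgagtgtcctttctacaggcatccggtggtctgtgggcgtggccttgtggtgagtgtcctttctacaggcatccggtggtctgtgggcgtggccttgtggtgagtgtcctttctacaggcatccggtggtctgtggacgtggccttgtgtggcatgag
The highest-scored LP-only site with an RBPJ string was intergenic, 72.3 kb past the start of Runx3 (chr4:135192892-135193098), and scored 62.5.
Runx3: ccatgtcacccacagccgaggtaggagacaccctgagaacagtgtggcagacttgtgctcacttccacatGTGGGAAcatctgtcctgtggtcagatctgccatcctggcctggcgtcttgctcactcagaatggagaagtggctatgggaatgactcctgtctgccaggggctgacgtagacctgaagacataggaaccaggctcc
The highest-scored ligand-induced site with an RBPJ string came from the Phase 2 list and had Gm266 as its nearest coding gene (chr12:111474890-111475062).
Gm266: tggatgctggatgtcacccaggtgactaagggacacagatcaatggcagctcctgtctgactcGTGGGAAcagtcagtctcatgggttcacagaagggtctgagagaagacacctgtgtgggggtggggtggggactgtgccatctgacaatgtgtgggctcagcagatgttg

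LP-only sites had low Notch1-IC scores, as did the LP Notch1-IC list as a whole (median 20.3). The score is the normalized peak score of the authors, whose scale is not stated in the file headers, and it is compared here only within a list. It ran from 15 to 162 with a median of 20.0 (quartiles 16.9 and 27), and the minimum kept by the authors was 15. The shared sites ran from 15.1 to 114 with a median of 24.5. Among the 50 highest-scored LP peaks 38 were LP-only (76.0%, 62.6 to 85.7). Among the 107 that followed, 100 were (93.5%, 87.1 to 96.8), close to the share over the list. Among the 157 highest-scored 138 were LP-only (87.9%, 81.9 to 92.1), and among the 157 lowest-scored 154 were (98.1%, 94.5 to 99.3). These values belong to the contrast that chose the sites and are given as a description.

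Few sites lay near the limit of the rule by distance. The lists hold no signal under their minimum score, so sites near the limit by score could not be counted. Only 5 LP-only sites were within 1 kb of a Phase 1 or Phase 2 Notch1-IC peak, and 159 were within 100 kb. The closest, with a score of 18.4, was near Zfp36l2 at 7 bp from a Phase 2 peak, followed by a site near Slc16a5 at 80 bp (score 42.1) and a site near Runx3 at 303 bp (score 20.7). On the other side of the limit, the shared sites with the least overlap were near Smim6 (41 bp, score 16.1), Gm1043 (60 bp, score 42.0) and Ripor2 (60 bp, score 21.5), against a median overlap of 173 bp over the shared sites.

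To ask what else occupied these sites before stimulation, LP-only sites were overlapped with the LP lists of RUNX1, Med12 and p300. LP RUNX1 peaks overlapped 1322 of 1473 sites (89.7%, 88.1 to 91.2; 89.7% of all autosomal LP Notch1-IC peaks). Med12 peaks overlapped 1321 (89.7%, 88.0 to 91.1; 89.6% of all). p300 peaks overlapped 1334 (90.6%, 89.0 to 92.0; 90.5% of all). All 3 partners were present at 1296 sites (88.0%, 86.2 to 89.5), none at 115 (7.81%, 6.54 to 9.29) and 1 or 2 at 62 (4.21%). No difference from the shared sites was detectable at these counts. The shared sites had RUNX1 at 89.0%, a difference of 0.749 percentage points (-4.28 to 8.52), Med12 at 89.0% (difference 0.681, -4.35 to 8.45) and p300 at 90% (difference 0.563, -4.19 to 8.13). Ligand-induced sites carried LP RUNX1 at 50.3% (44.7 to 56.0), LP Med12 at 46.0% (40.4 to 51.6) and LP p300 at 54.4% (48.7 to 59.9). Their Phase 1 shares were 75.5% for RUNX1, 79.2% for Med12 and 82.9% for p300. LP-only sites were chosen to have an LP Notch1-IC peak and ligand-induced sites to lack one. The lower LP shares at ligand-induced sites cannot be told apart from this choice. Among all autosomal LP RUNX1 peaks, 84.6% overlapped a Med12 peak and 90.9% a p300 peak.

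**Figure D1:**
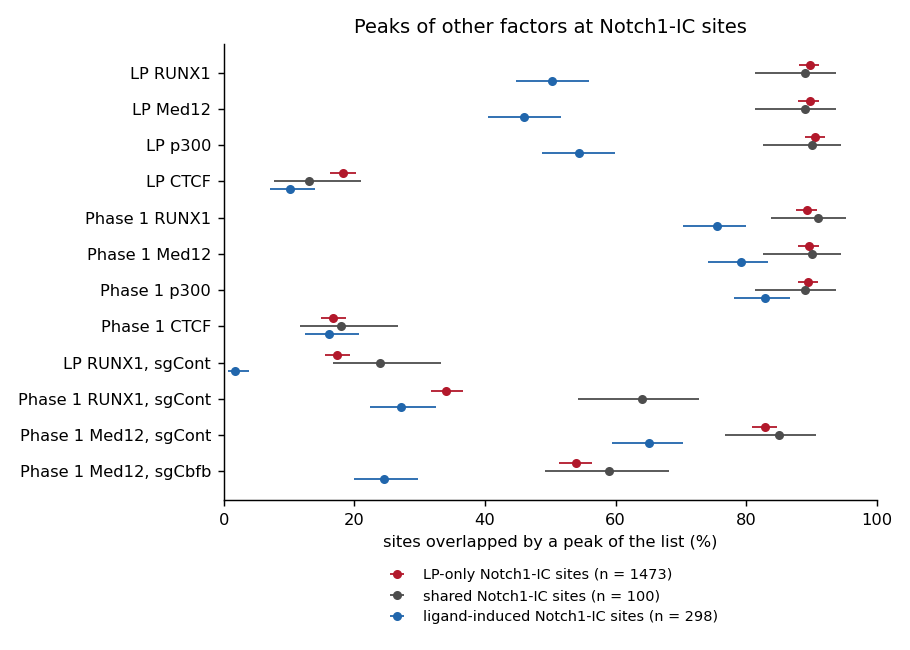
Share of Notch1-IC sites (horizontal axis, percent) overlapped by a peak of each list (vertical axis), for LP-only, shared and ligand-induced sites; points are shares and bars 95% Wilson intervals. LP-only sites lie at 89.7% for LP RUNX1 against 50.3% for ligand-induced sites, and at 34.1% for Phase 1 RUNX1 of sgCont against 64% for shared sites.

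CTCF, an insulator protein that binds its own motif, was listed at a minority of LP-only sites, near its share over all LP Notch1-IC peaks. LP CTCF peaks overlapped 268 LP-only sites (18.2%, 16.3 to 20.2; 17.9% of all LP Notch1-IC peaks), against 13% of shared sites (difference 5.19 points, -3.01 to 10.8). The share among all autosomal LP RUNX1 peaks was 23.2%. The CTCF peaks at LP-only sites ranked low, with a median percentile of 31.8 in the CTCF list. An exact CTCF string was found at 3 of 1473 sites (0.204%). It was at 0.136% of windows 2 kb to each side and at 2.19% of all LP RUNX1 peaks. How often CTCF peaks hold this string was not measured.

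The partner peaks at LP-only sites were among the strongest of their lists. Ranked by score over all autosomal peaks of its own list, the overlapping RUNX1 peak had a median percentile of 89.9 (quartiles 79.7 and 95.6), the Med12 peak 87.7 (75.9 and 94.5) and the p300 peak 93.7 (84.7 and 97.7). The partner peak was in the top 10% of its list by score at 652 sites for RUNX1 (44.3%, 41.7 to 46.8; 9.99% of the list), at 560 for Med12 (38.0%, 35.6 to 40.5; 10.00% of the list) and at 846 for p300 (57.4%, 54.9 to 59.9; 10.0% of the list). Shared sites ranked higher still, with median percentiles of 94.3 for RUNX1, 92.8 for Med12 and 97.9 for p300. The share in the top 10% was lower at LP-only than at shared sites by 17.7 points for RUNX1 (difference -17.7, -27.0 to -7.62), by 18.0 for Med12 (-18.0, -27.6 to -7.89) and by 11.6 for p300 (-11.6, -20.2 to -1.62).

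Read from the side of the partners, LP-only sites became more frequent with partner rank. In the top 10% of LP RUNX1 peaks 20.8% held an LP-only site (19.4 to 22.3), in the next 10% it was 10.6% (9.56 to 11.7), in the 10% just under the median 0.858% (0.590 to 1.25) and in the lowest 10% it was 0.192% (0.0880 to 0.418), against 4.22% over the list. For Med12 the top 10% had 19.0% and the lowest 10% had 0.239%. The p300 list had 23.8% in the top 10%, 7.03% in the next and 0.141% in the lowest. Among the 100 highest-scored p300 peaks 56 held an LP-only site, against 22 of the 100 highest RUNX1 peaks and 17 of the 100 highest Med12 peaks. Peaks with a promoter annotation were common at the top of the RUNX1 list (60.9% of its top 10%) and rare among LP-only sites, so the ranks were also taken outside promoters. There, 37.7% of the top 10% of RUNX1 peaks held an LP-only site (35.7 to 39.7) and 9.27% of the next 10%.

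**Figure D2:**
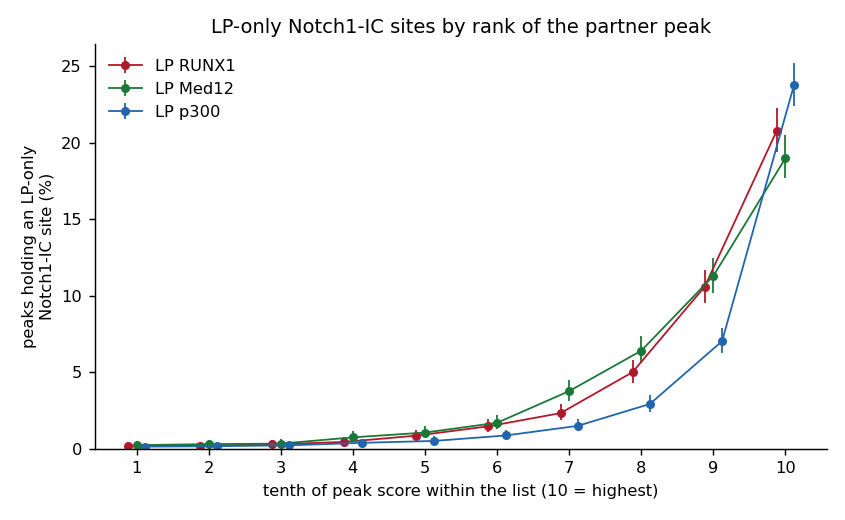
Share of LP RUNX1, Med12 and p300 peaks that held an LP-only Notch1-IC site (vertical axis, percent), in 10 equal classes of peak score within each list (horizontal axis, 10 is the highest); bars are 95% Wilson intervals. The p300 curve goes from 0.141% in the lowest class to 23.8% in the highest.

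Within the LP-only sites the Notch1-IC score went with partner rank. The sites were divided at the quartiles of Notch1-IC score into 4 classes of 354 to 384 sites. In the lowest class the median RUNX1 percentile was 85.4, and in the highest it was 95.3. The p300 percentile went from 90.2 to 97.5 and the Med12 percentile from 82.5 to 93.9. Spearman's rho over the sites with the peak was 0.353 for RUNX1 (n = 1322), 0.332 for Med12 (n = 1321) and 0.330 for p300 (n = 1334). Sites share libraries and local chromatin, so these are descriptions. The presence of a partner did not follow the score in the same way, with RUNX1 at 90.4% of the lowest class, 86.5% of the third and 91.2% of the highest.

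Of the 12 highest-scored LP-only sites, most carried strong partners and 2 carried none. The Lyl1 site (chr8:84700016-84700222, score 125) lay at -1.34 kb from Lyl1, a helix-loop-helix factor of blood progenitors, in an intron of Nfix, with percentiles of 98.8 for RUNX1, 99.7 for Med12 and 99.8 for p300. The Atp13a2 site printed above had percentiles of 99.9, 99.6 and 99.9. A site at -1.75 kb from Cbfa2t3 (chr8:122700752-122700958, score 102) reached 99.5, 98.4 and 100. Cbfa2t3 encodes the corepressor ETO2. An intergenic site 136 kb past the start of Mn1 (chr5:111553537-111553743, score 124) had 99.8, 99.7 and 99.7, and a site in an intron of Arid3a (chr10:79940807-79941013, score 109) had 98.3, 99.1 and 99.3. The Cpn2 site (chr16:30184978-30185184, score 152) and the Prex1 intron site (chr2:166630479-166630685, score 95.9) also carried strong partners, at RUNX1 percentiles of 98.3 and 96.8. The site of score 96.2 near 1700017B05Rik had RUNX1 at 93.0. The Atrnl1 tandem repeat ranked lower, at 90 for RUNX1, 79.4 for Med12 and 86.6 for p300. No partner peak of LP or Phase 1 was listed at the site near Llph (chr10:120278769-120278975, score 105), annotated as the repeat RLTR44-int, nor at a site in an intron of Jarid2 (chr13:44869854-44870060, score 101), annotated as the ribosomal RNA repeat LSU-rRNA_Hsa.

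Sites without partners lay mostly in sequence that occurs at several places in the genome. For each site, 16 words of 50 bases were taken from the central 200 bp, and a site was called repeated when at least 8 of them occurred at 2 or more places on the 21 chromosomes. This measure was added after the data were seen. Of the 115 sites without any partner 90 were repeated (78.3%, 69.9 to 84.8), of the 1296 with all 3 partners 42 (3.24%, 2.41 to 4.35), and of all 31351 autosomal LP RUNX1 peaks 239 (0.762%). Over all LP-only sites the count was 153 (10.4%, 8.93 to 12), against 27 of 100 shared sites (27%, 19.3 to 36.4) and 22 of 298 ligand-induced sites (7.38%). The comparison of partner shares between LP-only and shared sites above was not matched for repeated sequence. Outside repeated sequence, RUNX1 overlapped 1275 of 1320 LP-only sites (96.6%, 95.5 to 97.4), Med12 96.1% and p300 97%, and 25 sites had no partner (1.89%). Inside it, RUNX1 overlapped 47 of 153 (30.7%, 24.0 to 38.4). The authors' alignment kept reads that fit several places, per the methods of the study, and the part of read placement in these peaks was not tested.

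Some repeated sites were copies of each other. The central 200 bases of 42 LP-only sites equalled those of another, in 20 sequences, and in 16 of these the copies had Notch1-IC scores equal to within 0.1. The copies are counted one by one throughout, also among the 115 sites without a partner, of which 34 (29.6%) had such a twin. The highest-scored site without RUNX1, apart from those of Llph and Jarid2, lay in an intron of Camk2b (chr11:6010864-6011070, score 81.8) in the LTR repeat RLTR4_Mm, with all 16 words at several places. The next, at -29.2 kb from the start of Apbb1ip (chr2:22744767-22744973, score 65.6), was annotated as LSU-rRNA_Hsa, yet 0 of its 16 words occurred elsewhere on the chromosomes searched, and 6 did for the Jarid2 site of the same annotation.

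**Figure D3:**
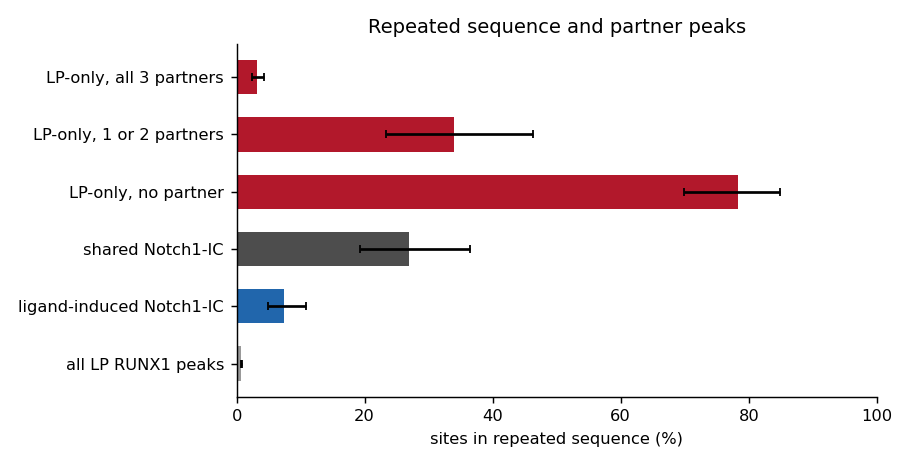
Share of sites in repeated sequence (horizontal axis, percent) for LP-only sites by number of LP partner lists present, for shared and ligand-induced Notch1-IC sites and for all LP RUNX1 peaks; bars are shares and lines 95% Wilson intervals. LP-only sites without a partner stand at 78.3% and those with all 3 partners at 3.24%.

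Replication-dependent histone genes, which encode the bulk histones and occur as many near-identical copies, made up part of this class. A histone gene was the nearest gene, as deposited or by coding start, at 30 LP-only sites (2.04%), 27 of them on chromosome 13, and at 0 of 100 shared and 0 of 298 ligand-induced sites. Of the 30, 23 had no LP partner, 1 had all 3 and 0 held a RUNX string, and their scores ran from 15.2 to 26.9. The cluster with the most LP-only sites was of this kind, with 6 sites in 31.0 kb (chr13:23531215-23562226) over Hist1h4h, Hist1h2af, Hist1h3g, Hist1h3f, Hist1h4f and Hist1h3e, each in an exon and with scores from 15.4 to 20.5. RUNX1 was listed at 2 of these, at percentiles of 96.9 for Hist1h4h and 89.0 for Hist1h3f. A further cluster of 4 over Hist1h3c, Hist1h3b, Hist1h4b and Hist1h3a (chr13:23745203-23762257) had no partner at any site.

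To place the sites in the genome, the annotation deposited with the peaks was used. Of the 1473 sites, 698 were intergenic (47.4%, 44.8 to 49.9), 578 intronic (39.2%, 36.8 to 41.8), 116 at promoters (7.88%, 6.61 to 9.36) and 36 exonic (2.44%). The LP RUNX1 list had 28.2% at promoters, and its top 10% had 60.9%. Shared sites were more often intergenic, at 63.0% (difference -15.6 points, -24.8 to -5.51), and less often intronic, at 26% (difference 13.2, 3.55 to 21.2). The median distance to the nearest start was 18.7 kb for LP-only sites (quartiles 6.30 and 47.9), 21 kb for shared sites and 9.44 kb for LP RUNX1 peaks. Repeats were named in the annotation of 217 LP-only sites (14.7%), against 20.0% of shared sites and 13.5% of LP RUNX1 peaks. LTR elements were named at 118 of them (8.01% of LP-only sites), against 18.0% of shared sites and 6.71% of LP RUNX1 peaks.

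Among the strings more frequent at LP-only sites than in nearby sequence were those of RUNX, ETS and helix-loop-helix factors, but not that of RBPJ. Strings were searched on both strands in the central 200 bp, with windows 2 kb to each side as local background. The RUNX string was present at 483 sites (32.8%, 30.4 to 35.2), against 5.57% of the flanking windows, 21.3% of all LP RUNX1 peaks, 43.0% of shared and 24.5% of ligand-induced sites. GTGGGAA, the string of RBPJ, was present at 57 sites (3.87%, 3.00 to 4.98), against 4.38% of flanks. Shared sites held it at 13% (difference -9.13 points, -17.2 to -3.77) and ligand-induced sites at 30.9% (difference -27.0, -32.5 to -21.9). A string is not a bound site, and its absence from this window says nothing of RBPJ elsewhere.

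Within 60 bp of the centre the RBPJ string occurred 1.81 times per 100 sites per 100 bp at LP-only sites and 2.27 times beyond 300 bp, whereas at ligand-induced sites it occurred 23.2 and 2.18 times. The RUNX string at LP-only sites occurred 23.3 times near the centre and 3.46 times beyond. The set labelled as Notch1-IC sites therefore lacked a local excess of the RBPJ string, and whether the antibodies recovered Notch1-IC itself at them was not tested.

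**Figure D4:**
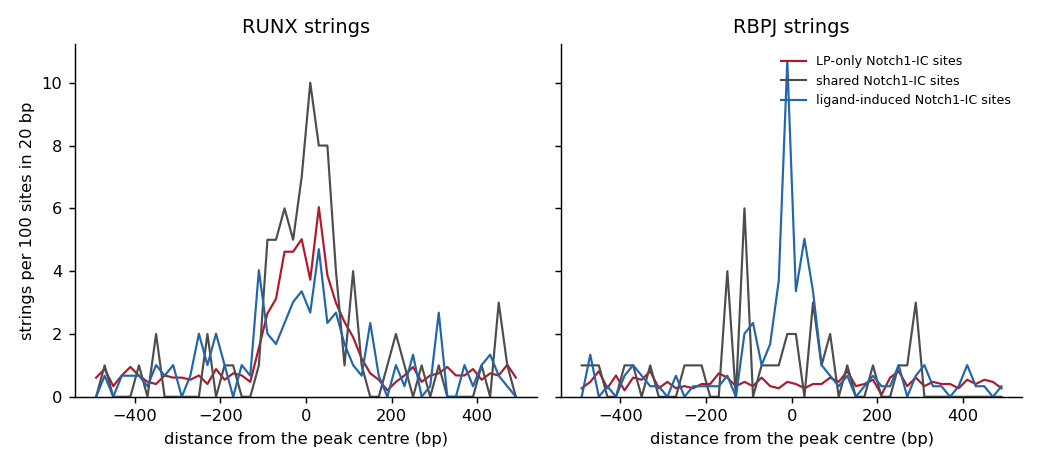
Number of RUNX strings (left) and RBPJ strings (right) per 100 sites in bins of 20 bp (vertical axis) by distance from the peak centre in bp (horizontal axis), for LP-only, shared and ligand-induced Notch1-IC sites. LP-only sites peak for RUNX and are flat for RBPJ, where ligand-induced sites peak; the shared line rests on 100 sites and is ragged.

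Strings of other progenitor factors were present too. CAGGAAG, an ETS core, was found at 27.1% of LP-only sites (7.91% of flanks, 18.5% of all LP RUNX1 peaks). GAGGAAGT, the PU.1 form, was at 9.44% (1.46% of flanks), near its share of 9.03% over all LP RUNX1 peaks. E-box strings (CAGCTG or CAGGTG), bound by helix-loop-helix factors, were at 51.4% (24.9% of flanks, 33.3% of all LP RUNX1 peaks). Shared sites held them at 69.0% (difference -17.6 points, -26.2 to -7.65). AP-1 strings (TGACTCA or TGAGTCA) were at 6.65% (3.77% of flanks), near their share of 5.81% over all LP RUNX1 peaks. The GATA string AGATAA was at 9.98% and the TCF string ATCAAAG at 1.49%, near or under their flanks of 10.8% and 2.78%. The ISRE string was at 2.65% (2.65% of flanks), and the MEF2 string at 4 sites. RUNX and an ETS or PU.1 string occurred together at 147 sites (9.98%), and 627 sites (42.6%) held none of them. Sites with a RUNX string had an LP RUNX1 peak at 96.5% and a promoter annotation at 3.52%, and those without at 86.5% and 10.0%.

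Strong RUNX1 peaks with and without an LP-only site were compared outside promoters, in the top 10% of that list. The 848 with an LP-only site held the RUNX string at 40.8%, against 33.2% of 1340 without any LP Notch1-IC peak (difference 7.59 points, 3.44 to 11.7). E-box strings differed more, 55.4% against 38.1% (17.4, 13.1 to 21.6), and ETS strings by 8.39 points (4.70 to 12.1). PU.1 strings differed by -0.133 points (-2.73 to 2.60) and the RBPJ string by 0.942 (-0.728 to 2.79). A p300 peak of the top 10% was present at 83.0% of the former and 54.3% of the latter (difference 28.8, 25 to 32.3). LP CTCF was at 22.3% and 22.8% (difference -0.473, -4.01 to 3.16). RUNX1 score within that range was not matched between the classes.

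To follow the sites after ligand exposure, the Phase 1 lists were used, in which none of these sites had a Notch1-IC peak by the rule. Phase 1 RUNX1 peaks overlapped 1315 LP-only sites (89.3%, 87.6 to 90.8; 89.4% of all LP Notch1-IC peaks), Med12 peaks 1320 (89.6%; 89.6% of all) and p300 peaks 1319 (89.5%; 89.5% of all). CTCF peaks overlapped 246 (16.7%; 16.8% of all). Of the 1322 sites with LP RUNX1, 1297 kept a RUNX1 peak in Phase 1 (98.1%, 97.2 to 98.7), where 83.1% of all LP RUNX1 peaks did. For Med12 the share was 97.2% (80.4% over the list) and for p300 97.2% (79.2%). In the top 10% of RUNX1 peaks outside promoters, a Phase 1 RUNX1 peak was present at 98.9% of those with an LP-only site and 98.2% of those without LP Notch1-IC (difference 0.730, -0.380 to 1.73). At the same RUNX1 peaks, Phase 1 Med12 was at 98.5% and 96.1% (difference 2.35, 0.942 to 3.68). Phase 1 p300 was at 98.2% and 95.5% (difference 2.71, 1.21 to 4.13).

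Ranks were then compared between the stages. The Phase 1 lists were longer, with 37671 autosomal RUNX1, 38376 Med12 and 48221 p300 peaks against 31351, 29412 and 35480 in LP, and percentiles depend on the length of a list, so the changes are given beside those of all peaks. The median change of percentile from LP to Phase 1 was -0.05 for RUNX1, 2.66 for Med12 and -1.05 for p300 at LP-only sites, with 49.1%, 68.7% and 37.7% of sites higher in Phase 1. Over all peaks kept in both stages the changes were 2.60, 2.90 and 3.09, with 61.8%, 58.9% and 64.4% higher. Median LP percentiles of those peaks were 57.3 to 58.4, against 87.9 to 93.9 at LP-only and 92.9 to 98.1 at shared sites. A high percentile leaves little room to rise, and the starting percentile was not matched. Whether LP-only sites lost rank relative to the whole list was therefore not tested. At shared sites the changes were 1.24, 4.06 and 0.187, with 70.8% (60.6 to 79.2), 88.6% (80.3 to 93.7) and 65.5% (55.1 to 74.7) higher. Median Phase 1 percentiles were 90.2, 92.5 and 91.6 at LP-only sites and 97.7, 99 and 98.8 at shared sites. The Phase 1 peak was in the top 10% for RUNX1 at 45.1% of LP-only and 73.0% of shared sites (difference -27.9, -36.0 to -18.1), for Med12 at 51.5% and 78.0% (-26.5, -33.9 to -17.1) and for p300 at 49.7% and 74.0% (-24.3, -32.3 to -14.6).

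**Figure D5:**
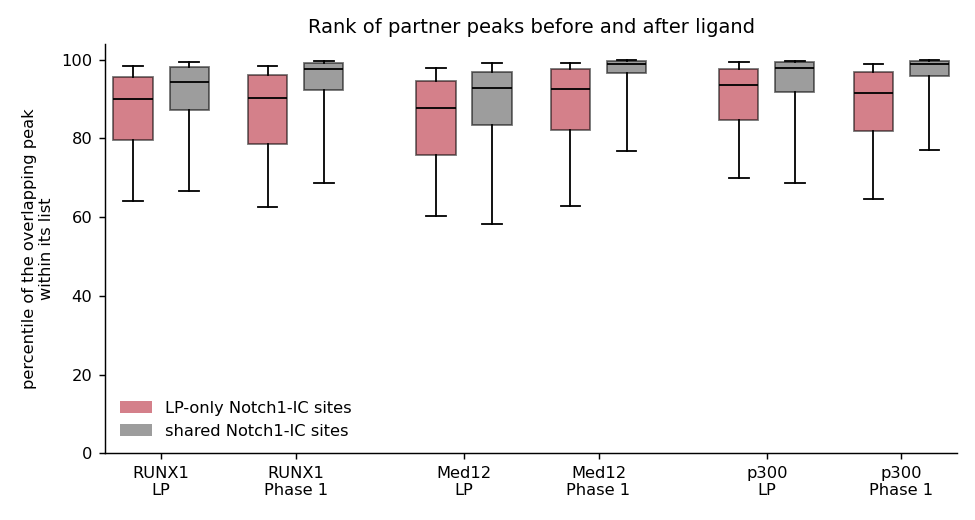
Percentile of the overlapping partner peak within its own list (vertical axis, 100 is the highest score) for p300, RUNX1 and Med12 in LP cells and in Phase 1 (horizontal axis), at LP-only and shared Notch1-IC sites; boxes are quartiles, black lines medians and whiskers the 10th and 90th percentiles, over sites with a peak. Shared sites have the higher median in each pair, such as 97.7 against 90.2 for Phase 1 RUNX1.

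All 6 guide RNA lists were shorter than the matching lists without guides. RUNX1 peaks of LP sgCont overlapped 256 LP-only sites (17.4%; 17.8% of all LP Notch1-IC peaks; 3.01% of LP RUNX1 peaks) and those of LP sgCTCF 198 (13.4%; 14.0% of all). Shared sites had the sgCont peak at 24.0% (difference -6.62, -16.0 to 0.962) and the sgCTCF peak at 23.0% (difference -9.56, -18.9 to -2.17). In Phase 1, RUNX1 peaks of sgCont overlapped 503 LP-only sites (34.1%, 31.8 to 36.6; 36.0% of all; 4.02% of Phase 1 RUNX1 peaks) against 64% of shared sites (difference -29.9, -38.9 to -19.8). RUNX1 peaks of sgMed12 overlapped 579 (39.3%; 40.3% of all) against 55% (difference -15.7, -25.4 to -5.62). Med12 peaks of sgCont overlapped 1221 (82.9%; 83.0% of all) and those of sgCbfb 794 (53.9%; 54.2% of all). Of the 1221 sites with the sgCont Med12 peak, 764 also had it in sgCbfb (62.6%, 59.8 to 65.2), against 67.5% over the sgCont Med12 list. Outside promoters these shares were 60.8% (57.9 to 63.6) and 49.6%. The lists were of different lengths, and whether a missing peak is lost binding was not tested.

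Some LP-only sites lay close together. Joined at up to 12500 bp, 325 of 1473 were in 147 clusters of 2 or more (22.1%, 20.0 to 24.3), of which 24 held 3 or more. An equal number of the highest-scored LP RUNX1 peaks had 174 in clusters (11.8%, 10.3 to 13.6), and of the 100 shared sites 16 were in clusters (16.0%, 10.1 to 24.4). Annotation was not matched, as promoters made up 60.9% of the top 10% of RUNX1 peaks and 7.88% of LP-only sites. The LP-only share was lower without repeated sequence, and 9.40% at a minimum Notch1-IC score of 30, which leaves fewer sites. Joined at 50 kb the shares were nearer, at 38.8% of LP-only sites (36.4 to 41.3) and 34.3% of the RUNX1 peaks (31.9 to 36.7), and in clusters were 22 of the 100 shared sites. The shared set is smaller, which by itself gives fewer neighbours. Besides the histone clusters, 4 sites lay in 18.6 kb upstream of and in Rcbtb2 (chr14:73105373-73124014, scores 18.0 to 59.0) and 4 in 21.9 kb between H2afy and Tifab (chr13:56151458-56173365, scores 15.9 to 68.2), all 8 with RUNX1 and p300. In the H2afy and Tifab cluster the p300 percentiles were 99.8, 99, 98.6 and 84.5. The last of the 5 clusters, 4 sites in 2.83 kb near BC107364 and Hfe2 on chromosome 3, was wholly in repeated sequence, with scores from 16.5 to 17.3.

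The sites were spread over 1186 nearest genes as deposited, of which 214 had 2 or more sites. Of the 10 genes with the most sites, 6 had all sites in unique sequence and 4 had most of them in repeated sequence. Runx3, a RUNX factor of T cells, had 6 sites with scores from 16.5 to 62.5, among them 1 just upstream of the start (chr4:135120379-135120585, score 33.9, RUNX1 percentile 99.8, with a RUNX string) and 1 in an intron (score 32.4, RUNX1 percentile 98.3). All 6 carried RUNX1 and p300. Cbfa2t3 had 5 sites with scores from 25.7 to 102, and 3 of them carried RUNX1. The other 2, at -2.87 and -3.45 kb, had no partner peak, although they lay in unique sequence and held a RUNX string. Smad3, a mediator of TGF-beta signals, had 4, of which 3 were intronic, with scores from 16.3 to 29.1, all with RUNX1 and p300. The 4 sites assigned to the non-coding Gm17746 had Id2, an inhibitor of helix-loop-helix factors, as the nearest coding gene, at -67.8 to -334 kb from its start. The strongest of these (chr12:25189356-25189562, score 46.3) had a p300 percentile of 99.7. The 4 sites of Gm5122 scored 19.5 to 64.2 and carried RUNX1 and p300.

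The loci with mostly repeated sequence were those of Speer1, 1700003C15Rik, Gm30214 and Mir6388. The 5 sites of Speer1 and the 4 of 1700003C15Rik lay in a duplicated family on chromosome 5, with scores from 20.0 to 34.3 and RUNX1 at 0 of 9. Of the 8 sites of Gm30214 (scores 15.8 to 28.5), 1 carried RUNX1. Those sites lay among V segments of the T-cell receptor alpha and delta locus, for example 6 bp from Trav15d-1-dv6d-1 and 72 bp from Trav15n-1, both with a score of 26.8 and each equal in sequence to another LP-only site. This receptor locus held 9 LP-only, 3 shared and 1 ligand-induced site in all, and 46 LP RUNX1 peaks.

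Mir6388 stood apart in that its 7 sites, all in the V region of the immunoglobulin heavy chain locus, each carried RUNX1 and p300, and 6 held a RUNX string. Their scores were low, from 15.1 to 20.6, and so were several RUNX1 percentiles, from 11.5 at Ighv1-71 to 93.4 at Ighv1-58. Of these 7 sites, 3 were inside a segment and a further 3 within 52 bp of one, and the last lay 1487 bp from Ighv1-62-1. The locus held 9 LP-only sites in all, 0 shared and 0 ligand-induced ones, and 100 LP RUNX1 peaks. The strongest of the 9 was 974 bp from Ighj4 (chr12:113427437-113427643, score 28.4), in unique sequence, with percentiles of 98.9 for RUNX1 and 99.8 for p300. At the immunoglobulin kappa locus 3 sites lay 22 to 71 bp from Igkv10-94, Igkv10-95 and Igkv10-96, all with RUNX1. The kappa locus also held 2 shared and 0 ligand-induced sites, and 8 LP RUNX1 peaks.

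Lists of genes that mark the lineages were then read, with the count among all genes beside them. Of 13436 genes that were nearest to an LP RUNX1 peak, 1114 were also nearest to an LP-only site (8.29%). The number of RUNX1 peaks per gene differs between genes and was not matched, and the lists were drawn up with earlier results of these data known, so no test was made. Of 22 stem and progenitor transcription factors 17 were near RUNX1 and 7 of these had an LP-only site (41.2%). Mef2c, a regulator of lymphoid progenitors, had a site in an intron with a score of 77.0 (chr13:83572065-83572271) and percentiles of 97.2, 99.5 and 99.3 for RUNX1, Med12 and p300. The strongest site of Lyl1 scored 125. The ETS factor Erg had an intronic site of 23.9, with a p300 percentile of 99.5, and Fli1 had 2 intronic sites, each of score 15.4. Bcl11a had sites of 21.1 and 19.5, whose p300 percentiles were 77.9 and 79.1 in LP and 5.06 and 30.8 in Phase 1. Zeb2 had a site of 17.7.

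The RUNX genes, Cbfb and Cbfa2t3 formed a list of 5, of which 4 had LP-only sites, 15 in all. Runx1 itself had 3, with scores of 31.2, 30.7 and 24.6 and p300 percentiles of 97.9, 96.8 and 98.6. The last of these (chr16:92801669-92801875) lay in an intron, 24.4 kb past the start, and held a RUNX string. Runx2 had a site of 18.7.

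Cytokine receptors had sites at 4 of 17 genes near RUNX1 (23.5%). Flt3, the receptor for the Flt3L in the medium, had an intronic site (chr5:147366458-147366664, score 41.9) with percentiles of 99.5, 99.9 and 100. Il21r had sites of 31.8 and 15.4, Il2rb a site of 21.8 and Csf1r a site of 21.4. The Il2rb site had a RUNX1 percentile of 91.7 in LP and no RUNX1, Med12 or p300 peak in Phase 1. Surface markers of progenitors had sites at 6 of 15 (40.0%), among them Ccr9 (39.4, RUNX1 percentile 99.6), the homing receptor of thymus-seeding progenitors, Cd34 (37.5), Cd44 (26.9), Cd93 (19.1), Ptprc (18.7), which encodes CD45, and Cxcr4 (15.8).

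Lymphoid transcription factors had sites at 5 of 19 (26.3%), with Bach2 at 26.1 and 22.4, Tcf4 at 19.8, Elf1 at 19.1, Lef1 at 18.4 and Tox at 15.4. T-lineage genes had sites at 4 of 19 (21.1%). Tcf7, which encodes the early T-cell factor TCF1, had a site at -35.6 kb (chr11:52318494-52318700, score 30.2) with a RUNX1 percentile of 93.8 in LP and 98.4 in Phase 1. Cd28 had a site of 28.7, Cd247 of 27 and Cd2 of 21.8.

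The Notch pathway and its direct targets had an LP-only site at 1 of 15 genes near RUNX1 (6.67%). It was Maml3, a Mastermind-like coactivator of Notch, with a site in an intron (chr3:52000153-52000359, score 88.3) at percentiles of 98.2, 98.8 and 99.6. Myeloid factors had 1 of 13 (7.69%), a site of 15.1 near Egr1, and B-lineage genes 0 of 8. These counts shifted with the way genes were assigned. By nearest coding start, Notch1 (17.7) and Myc (16.9, at 839 kb) joined the Notch list, Spi1 (27.3, 0.680 kb from a start) and Id2 the myeloid list, and Ebf1 (19.4) the B-lineage list, giving 3 of 15, 3 of 13 and 1 of 9, where 9.25% of all genes had a site. Cytokine receptors went from 4 to 6 of 17 (35.3%), with Ifngr1 and Ifngr2 added, the RUNX list from 4 to 3 of 5 (60.0%) without Runx2, and stem and progenitor factors from 7 of 17 to 6 of 18 (33.3%) without Erg. The lymphoid list stayed at 5 genes, with Foxo1 in place of Elf1, and the T-lineage and surface marker lists kept 4 and 6.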

How the data were processed

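ChIP-seq was made from 38 samples in 19 groups of 2, with disuccinimidyl glutarate and formaldehyde used for crosslinking per the study's methods. The authors aligned the reads to mm10 (GRCm38) with Bowtie 1.1.1, keeping reads that fit several places, called peaks with HOMER against a matched control, and merged both samples of a group by the irreproducible discovery rate (IDR). The deposited values are 17 peak lists with a peak score from HOMER of 15 or more, whose scale is not stated. The 2 groups of input samples had no list and were not analysed here. Depths are unknown from the lists, so the precision given is that of counted peaks.

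Peaks were overlapped at 1 bp or more on the 19 autosomes. Shares have 95% Wilson intervals and differences 95% Newcombe intervals, both for counting error only. Ranks are percentiles of the highest-scored overlapping peak within its own list. Strings were counted in the central 200 bp of the RefSeq GRCm38 sequence. The nearest gene is the deposited one, with a symbol for 1362 LP-only sites as deposited and for 1473 after matching the transcript to RefSeq. Host genes and nearest coding starts are from GENCODE M21.

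Named sites were the 12 highest-scored, those of the 10 genes and 5 clusters with the most sites, those of up to 6 genes per list by score, the 4 highest-scored without RUNX1, and 3 on each side of the rule's limit. Printed sequences were 2 of the 3 highest-scored with a RUNX string, and the highest-scored without one and with an RBPJ string, outside annotated repeats and chromosome 18. A named site is not reported here. The sites, lists and named items were chosen with earlier results of these data known. The classes by number of partners and by repeated sequence, and the promoter sites given at the end, were chosen after the data were seen. Scripts were tested on simulated peaks. Python 3.11.15, numpy 2.4.6, pandas 2.3.3, scipy 1.17.1, pysam 0.24.0, samtools 1.23.1 and matplotlib 3.10.9 were used.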

Additional observations from a re-analysis of the deposited data

How the results depend on the processing

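Of 171 values recomputed under 18 alternatives for 19 results, 122 stayed within the counting interval (or within 1.5 times for counts) and 49 moved. With a minimum Notch1-IC score of 20 there were 748 LP-only sites and 642 nearest genes, and with 30 there were 298 and 267. Under these minimums (20, then 30) the median RUNX1 percentile was 93.5 and 95.6, that of Med12 91.1 and 94.5, and that of p300 96.2 and 97.6. The share of the top 10% of RUNX1 peaks with an LP-only site was 13.2% and 6.35%, promoter sites 6.02% and 3.69%, intergenic sites 50.1% and 50.0%, and sites in clusters 15.5% and 9.40%. Phase 1 RUNX1 of sgCont was at 40.2% and 48.0%, Phase 1 p300 at 87.8% for a minimum of 20, and LP CTCF at 15.8% for a minimum of 30. Without annotated repeats, LP RUNX1 was at 91.3%, Phase 1 RUNX1 at 90.8%, intergenic sites at 44.4%, clustered sites at 19.3% and the top 10% of RUNX1 peaks at 18.6%. Without promoter sites, the top 10% of RUNX1 peaks was at 19.1% and intergenic sites at 51.4%. Without repeated sequence, an alternative chosen after seeing the data, LP RUNX1, Med12 and p300 were at 96.6%, 96.1% and 97%, their Phase 1 peaks at 95.9%, 96.0% and 96.1%, clustered sites at 17.4% and Phase 1 RUNX1 of sgCont at 37.8%. With centres within 100 bp the partners were at 86.4%, 85.6% and 86.8%, and with a partner score of 30 or more Med12 was at 87.9%. Ranked outside promoters, the median percentiles were 94.4, 93.1 and 94.6, and, as an alternative added later, the top 10% of RUNX1 peaks outside promoters had 37.7%. In a 100 bp window the RUNX string was at 20.6% and the RBPJ string at 1.70%. Joined at 5 kb and 50 kb, 11.5% and 38.8% of sites were in clusters. The cause of these shifts was not tested, except that higher minimums, exclusions and smaller windows leave fewer sites or bases by construction. The lists merge both samples of each group, so leaving out a replicate was not run. No paired analysis was possible because the deposited lists carry no values per replicate.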

Other observations

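The promoter sites, 116 of 1473, held genes not described above. These were picked from the 12 highest-scored promoter sites after their values were seen. Msh6, a DNA mismatch repair gene, had a site of 69.6 (chr17:87974659-87974865) with percentiles of 99.9 for RUNX1 and 99.1 for p300. The site of Mir6546 (48.0) had a Med12 percentile of 58.7 and no RUNX1 or p300 peak, and 14 of its 16 words occurred at several places. Sde2 had a site of 48.0 with a Med12 percentile of 100. Sla2, an adaptor of antigen receptor signalling, had a site of 43.4, and Rgs18, a regulator of G proteins in blood cells, a site of 40.4, with RUNX1 percentiles of 95.5 and 89.5. The promoter sites of Calm4 (47.5) and Calm5 (46.3) had no RUNX1, Med12 or p300 peak in LP, and 11 of 16 words of each occurred at several places.

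The density of LP-only sites differed between chromosomes, from 3.37 per 10 Mb on chromosome 3 to 9.50 on chromosome 11. LP RUNX1 peaks also had their lowest and highest densities there, at 84.8 and 215 per 10 Mb. Chromosome 17 was high in both, at 8.74 LP-only sites and 169 RUNX1 peaks per 10 Mb. Elsewhere the densities did not always go together, with 5.37 and 174 on chromosome 19 and 7.97 and 119 on chromosome 13.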
